A study of Mus musculus with 1 sample.

Results

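Wnt signals in the postnatal mouse pancreas were followed through 10 genes for secreted proteins, of 32285 genes listed in the count table. They were chosen by gene symbol, with earlier results of these data known, and all 10 were found. They were the Wnt ligands Wnt2, Wnt2b, Wnt4 and Wnt5a, the R-spondins Rspo1 and Rspo3, and the antagonists Sfrp1, Sfrp2, Dkk2 and Dkk3. The study asked how loss of SCAP, the escort protein of the SREBP lipid transcription factors, altered the pancreas. The library described here came from Scap f/f mice, which carry floxed Scap alleles without Cre, at 2 weeks of age. From these mice 5 to 6 pancreata were pooled and then dissociated before droplet-based single-cell RNA sequencing, so the animals could not be told apart. The Scap-deleted library was not analysed here. With 1 library there was no replicate check and no test of a condition, and every interval below covers counting error only. Of 11789 barcodes, 10947 passed the limits of more than 800 and fewer than 100000 unique molecular identifiers (UMIs, counts of captured RNA molecules) and under 15% mitochondrial UMIs. They held a median of 2650 UMIs and 1326 genes, and the 10 genes made up 20903 UMIs, or 0.0425% of the total.

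Wnt proteins are lipid-modified ligands that bind Frizzled receptors with the co-receptors LRP5 and LRP6 and stabilise beta-catenin, or act through beta-catenin-independent routes with ROR and RYK receptors. R-spondins amplify Wnt signals by binding LGR receptors and drawing the ubiquitin ligases RNF43 and ZNRF3 away from Frizzled. Secreted Frizzled-related proteins bind Wnts outside the cell, and Dickkopf proteins such as DKK2 bind the LRP co-receptors, whereas DKK3 is a divergent member of that family. Mesenchyme and mesothelium are known sources of Wnt-pathway proteins in developing gut organs.

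Cells were placed in classes by marker genes that did not include any of the 10. Earlier results of these data had named the Cxcl14 subset by Rspo3 as well, and Rspo3 was left out of its gate because it is among the 10. The Rspo3 level of that subset is therefore not independent of how the subset was chosen. Fibroblasts numbered 5468 cells, of which 222 were gated by Cxcl14, 1482 by Mfap4 and Meox2, 765 by Pi16 and Pcolce2, 2655 fell below these subset gates and 344 were in several of them. There were 513 mesothelial-like, 163 mural-like, 362 endothelial-like, 52 Schwann-like, 84 duct-like, 1005 acinar-like, 409 red blood cell-like, 901 T and NK-like, 383 B-like and 52 dendritic-like cells, which gave 15 classes of at least 50 cells. Endocrine-like cells (13), macrophage-like cells (19) and mast-like cells (3) were too few to rank, and 927 cells met gates of more than 1 class while 593 met none. The 7 mesothelial markers summed to 4278 CPM (UMIs of a gene scaled to 1000000 UMIs of its class) in the mesothelial-like cells and to at most 350 CPM in any other class. The mesothelial gate used these same 7 markers, so this contrast follows from the gate. The mesothelial-like cells also held 30323 CPM of the 7 fibroblast markers, against 43782 to 65491 CPM in the fibroblast classes. The part of fibroblast RNA in their Wnt gene levels was not tested. The mural-like cells had S100a8 and S100a9, neutrophil genes, among their leading genes. T, NK and B cells, which are not known as sources of these proteins, were used as a measure of free RNA in the droplets: pooled over 1284 lymphoid cells, the 10 genes ranged from 0 CPM for Wnt2 to 7.18 CPM for Sfrp1.

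Of the 10 genes, 7 had most of their UMIs in fibroblasts, and Rspo1, Wnt2b and Wnt4 did not. Gated fibroblasts held 38.7% of all UMIs but 87.2% of those of Rspo3, 87.2% of Dkk2, 78.6% of Wnt2, 77.1% of Wnt5a, 72.5% of Sfrp1, 66.4% of Dkk3 and 66.3% of Sfrp2. Mesothelial-like cells held 6.12% of all UMIs but 73.8% of those of Rspo1, 43.2% of Wnt2b and 34.2% of Wnt4. Fibroblasts held 13.1%, 44.4% and 19.8% of these 3 genes, and the largest share of Wnt4, 38.3%, lay in the other gated classes. Against all other gated cells, 5 of the 10 genes were at least 4-fold higher in fibroblasts (Rspo3, Wnt2, Wnt5a, Sfrp1 and Dkk2), where 6.87% of the 16555 genes with at least 20 UMIs were. In mesothelial-like cells 4 of 10 were (Rspo1, Wnt2b, Wnt4 and Sfrp2), against 4.97% of all genes. The median fold of the 10 was 5.06 in fibroblasts and 2.61 in mesothelial-like cells, beside medians of 1.06 and 1.077 over all genes tested. The 10 genes were chosen with earlier results of these data known, so these contrasts describe the list and give no independent support. No member reached 4-fold in the mural-like, endothelial-like, acinar-like, red blood cell-like, T and NK-like, B-like or dendritic-like cells, where 5.61%, 6.53%, 3.42%, 1.43%, 6.92%, 6.52% and 7.64% of all genes did.

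**Figure D1:**
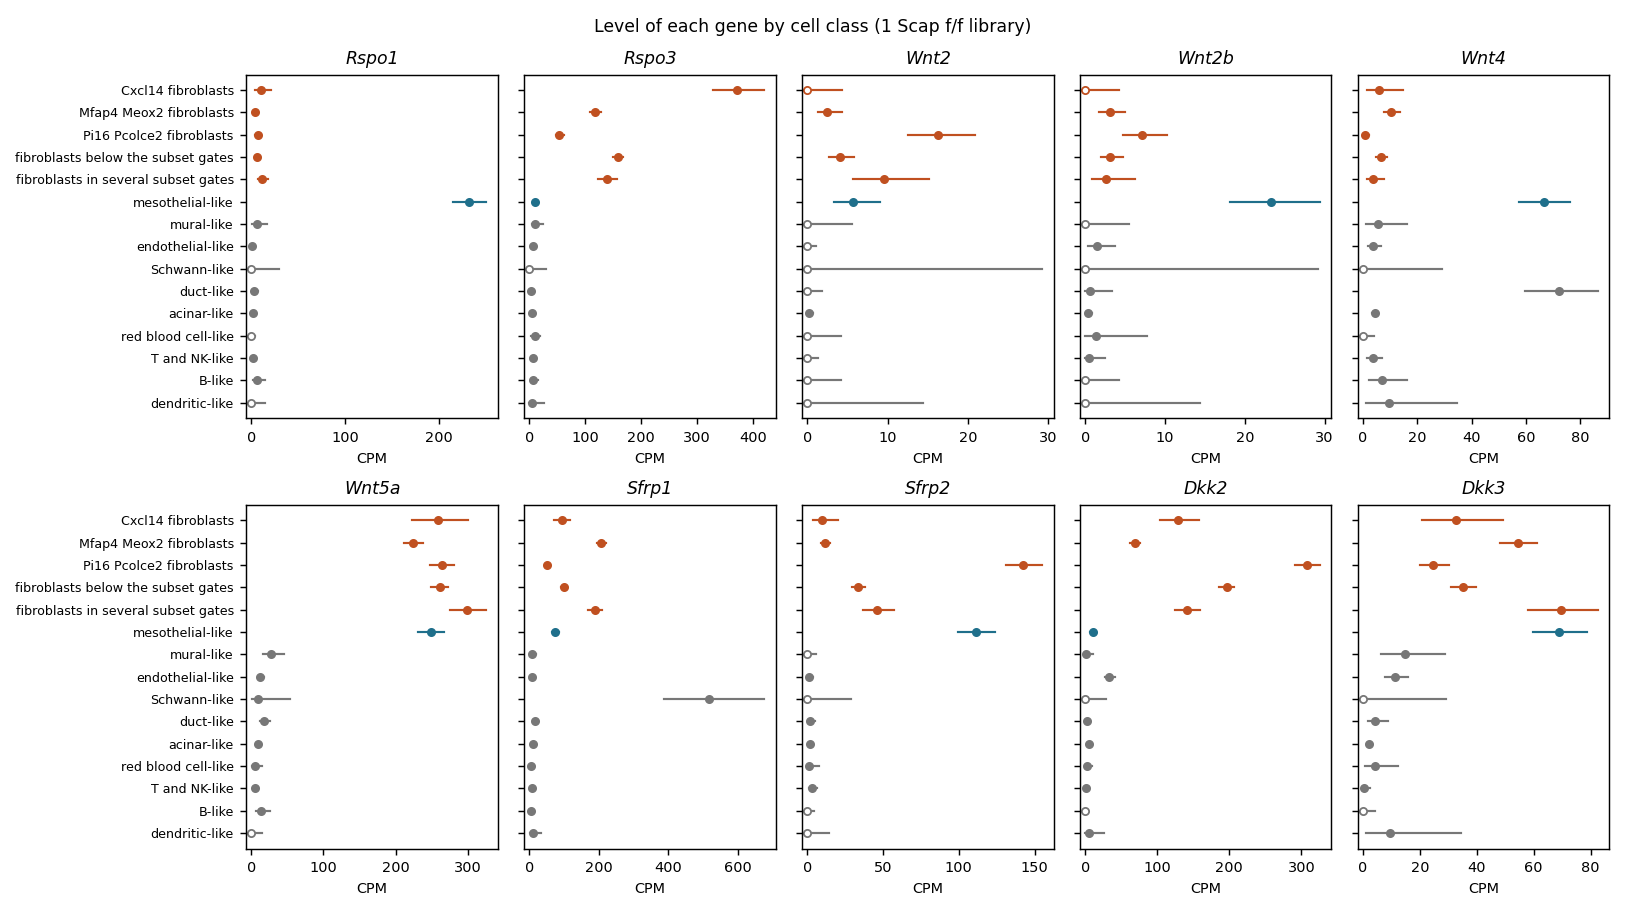
Level of each gene (CPM, linear axis that differs between panels) in 15 cell classes of 1 Scap f/f library, with exact 95% Poisson intervals; fibroblast classes are orange, mesothelial-like cells blue, others grey, and open circles are classes with 0 UMIs, whose line ends at the limit of 3 counts. Rspo1 stood at 232 CPM in mesothelial-like cells and at no more than 11.7 CPM in the other 14 classes, while Wnt5a stood between 224 and 300 CPM in all 5 fibroblast classes.

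Sequence upstream of the gene starts is given for members whose reference window was available and lay outside the gene. RefSeq windows (GRCm38.p6) of 250 bases before the start were matched for 6 of the 10 genes, and those of Wnt2, Wnt2b and Wnt4 overlapped the transcribed part of the gene in GENCODE by 140, 212 and 146 bases and are not printed. The other 3 lay wholly outside the gene. Rspo1 is at chr4:124986180-124986429 on the plus strand, Sfrp2 at chr3:83766071-83766320 on the plus strand, and Dkk2 at chr3:132085042-132085291 on the plus strand, each read from 5′ to 3′ with motif matches in capitals.
Rspo1: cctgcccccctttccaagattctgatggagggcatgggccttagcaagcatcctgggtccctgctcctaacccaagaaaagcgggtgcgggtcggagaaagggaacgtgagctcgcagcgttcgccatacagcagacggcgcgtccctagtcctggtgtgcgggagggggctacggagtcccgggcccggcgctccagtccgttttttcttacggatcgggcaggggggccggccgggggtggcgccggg
Sfrp2: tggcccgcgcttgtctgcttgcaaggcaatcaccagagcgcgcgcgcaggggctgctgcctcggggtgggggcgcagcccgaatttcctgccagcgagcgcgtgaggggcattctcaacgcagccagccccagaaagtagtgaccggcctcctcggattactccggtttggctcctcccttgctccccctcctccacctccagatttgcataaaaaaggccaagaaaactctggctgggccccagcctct
Dkk2: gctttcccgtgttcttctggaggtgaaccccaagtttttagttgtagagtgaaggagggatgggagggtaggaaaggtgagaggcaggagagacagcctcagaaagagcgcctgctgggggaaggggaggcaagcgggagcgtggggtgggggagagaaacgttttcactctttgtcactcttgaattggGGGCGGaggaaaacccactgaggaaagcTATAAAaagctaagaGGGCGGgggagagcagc
The motifs searched on both strands were the TCF/LEF core CTTTGA, the TEAD core GGAATG, the GC box GGGCGG, the TATA box TATAAA and the E box CACGTG. The Dkk2 window held a TATA box at 32 to 27 bases before the start and 2 GC boxes. The Rspo1 and Sfrp2 windows held none of the 5 motifs in these letters. Over 32851 promoter windows of the same length, 12.4% held the TATA box, 32.7% the GC box, 13.8% the TCF/LEF core, 12.6% the TEAD core and 6.02% the E box. GC content was 66.8% for Rspo1, 63.6% for Sfrp2 and 55.6% for Dkk2, against a median of 52.4% over all windows.

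Among the ligands, Wnt5a, a ligand known mainly for beta-catenin-independent signalling, was the most evenly spread through the mesenchyme. Its gene lies on chromosome 14 (28504750 to 28527448, plus strand, in GRCm38, as for the positions below) and gave 6316 UMIs. It stood at 300 CPM (95% interval 276 to 326) in fibroblasts of several subset gates, 264 (248 to 281) in Pi16 Pcolce2 fibroblasts, 261 (250 to 273) in fibroblasts below the gates, 260 (223 to 300) in Cxcl14 fibroblasts, 249 (232 to 268) in mesothelial-like cells and 224 (212 to 237) in Mfap4 Meox2 fibroblasts. From Pi16 Pcolce2 fibroblasts to mesothelial-like cells no level stood apart from the next in this order. Fibroblasts of several gates stood 1.13-fold (1.02 to 1.26) above Pi16 Pcolce2 fibroblasts, and mesothelial-like cells 1.11-fold (1.01 to 1.22) above Mfap4 Meox2 fibroblasts. Mesothelial-like cells did not stand apart from fibroblasts as a whole, with a ratio of 0.975 (0.902 to 1.05). Below these classes came mural-like cells at 27.6 CPM (15.4 to 45.5), which lay 8.13-fold (4.91 to 14.6) below Mfap4 Meox2 fibroblasts, and duct-like cells at 17.6 (11.8 to 25.3). The lymphoid cells held 6.84 CPM (4.18 to 10.6).

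Wnt4, a ligand known from kidney and gonad development, was, among the 15 classes, highest in duct-like and mesothelial-like cells and low in fibroblasts and acinar-like cells (chromosome 4, 137277489 to 137299726, plus strand). It reached 72.2 CPM (59.8 to 86.4) in duct-like cells and 66.5 CPM (57.6 to 76.4) in mesothelial-like cells, which did not differ beyond counting error, with a ratio of 1.09 (0.858 to 1.37). The duct-like level was 17.1-fold (12.3 to 24.1) above the 4.23 CPM (3.17 to 5.53) of acinar-like cells. It rested on large cells: the 41 duct-like cells of 10000 UMIs or more held 115 of the 119 UMIs, at 80.0 CPM (66.1 to 96.0), and the other 43 cells held 4, at 19.0 CPM (5.17 to 48.6). Without the large cells the order of duct-like and mesothelial-like cells turned, at a ratio of 0.29. In a clustering of all cells made without the 10 genes, the cluster led by Spp1, Clu, Pkhd1, Krt8 and Sox9 (158 cells), which also lead the duct-like gate, held 38.1 CPM (32.5 to 44.5) of Wnt4, below the 67.1 CPM (58.7 to 76.4) of the mesothelial-like cluster. The duct-like cells also held 35040 CPM of the 6 acinar markers, and the part of other cells' RNA in this level was not tested. The 13 endocrine-like cells held 23 Wnt4 UMIs, 99.8 CPM (63.3 to 150), with a UMI in 69.2% of them (38.6 to 90.9%). In fibroblasts as a whole Wnt4 stood at 6.09 CPM (5.03 to 7.31), within counting error of the 4.45 CPM (2.37 to 7.60) of lymphoid cells. Within the fibroblasts, Mfap4 Meox2 cells held 10.4 CPM (7.80 to 13.6) and Pi16 Pcolce2 cells 0.765 CPM (0.158 to 2.23), a ratio of 13.6 (4.41 to 67.9) that rested on 54 and 3 UMIs.

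Wnt2 and Wnt2b, closely related ligands that act through beta-catenin, were the rarest of the 10, with 159 and 162 UMIs. Wnt2 (chromosome 6, 17988940 to 18030585, minus strand) was highest in Pi16 Pcolce2 fibroblasts at 16.3 CPM (12.6 to 20.8), followed by fibroblasts of several subset gates at 9.55 (5.66 to 15.1), mesothelial-like cells at 5.65 (3.29 to 9.05), fibroblasts below the gates at 4.09 (2.76 to 5.84) and Mfap4 Meox2 fibroblasts at 2.50 (1.33 to 4.28). No neighbours in this order stood apart, but the first and the last did, at 6.52-fold (3.56 to 12.9). Cxcl14 fibroblasts had 0 Wnt2 UMIs, as did duct-like, endothelial-like, mural-like, Schwann-like and lymphoid cells. Fibroblasts as a whole were at least 6.40-fold higher than lymphoid cells, taken at the limit of 3 counts over that class. Wnt2b (chromosome 3, 104945272 to 104961921, minus strand) was highest in mesothelial-like cells at 23.3 CPM (18.1 to 29.4), 3.26-fold (2.08 to 5.25) above the 7.14 CPM (4.74 to 10.3) of Pi16 Pcolce2 fibroblasts. Those in turn stood 2.28-fold (1.26 to 4.14) above the 3.14 CPM (1.99 to 4.70) of fibroblasts below the gates. The pair therefore had different leading classes, with Pi16 Pcolce2 fibroblasts first for Wnt2 and second for Wnt2b.

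The R-spondins divided mesothelium from fibroblasts. Rspo1 (chromosome 4, 124986430 to 125009099, plus strand) reached 232 CPM (215 to 250) in mesothelial-like cells, where 698 of its 946 UMIs were counted and 56.9% of cells (52.5 to 61.3%) held at least 1. The next class, fibroblasts of several subset gates, stood at 11.7 CPM (7.32 to 17.7), 19.9-fold (13.0 to 31.9) lower. Mesothelial-like cells were 35.6-fold (29.4 to 43.5) above fibroblasts as a whole, which held 6.51 CPM (5.42 to 7.76). Acinar-like cells were at 1.44 CPM (0.851 to 2.27), duct-like cells at 3.03 (0.985 to 7.08) and endothelial-like cells at 0.721 (0.0873 to 2.60), all within counting error of the lymphoid 2.39 CPM (0.963 to 4.93). Scrublet, a doublet caller, marked 9.16% of mesothelial-like cells, and without marked cells the Rspo1 level stayed within its interval.

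Rspo3 (chromosome 10, 29452416 to 29535867, minus strand) showed the opposite pattern. It was highest in Cxcl14 fibroblasts at 372 CPM (328 to 420), where 59.9% of cells (53.1 to 66.4%) held a UMI. Fibroblasts below the gates followed at 159 CPM (150 to 168), 2.35-fold (2.04 to 2.69) lower, then fibroblasts of several gates at 140 (123 to 158), Mfap4 Meox2 fibroblasts at 118 (109 to 128) and Pi16 Pcolce2 fibroblasts at 54.0 (47.0 to 61.8). The Cxcl14 cells thus stood 3.16-fold (2.72 to 3.66) above the Mfap4 Meox2 cells and 6.89-fold (5.72 to 8.30) above the Pi16 Pcolce2 cells. Because the Cxcl14 subset was known from these data by Rspo3 as well, these ratios are not independent of its choice. Mesothelial-like cells held 9.97 CPM (6.73 to 14.2), 13.2-fold (9.24 to 19.6) below fibroblasts as a whole and within counting error of the lymphoid 6.50 CPM (3.91 to 10.1). Asking for 2 rather than 1 Cxcl14 UMIs in the gate, with the UMI and share minimums of the other gates also doubled, lowered the Cxcl14 level to 266 CPM and kept it above the other classes.

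Among the antagonists, Sfrp1 (chromosome 8, 23411502 to 23449632, plus strand) was highest outside the fibroblasts, in Schwann-like cells. These 52 cells held 53 Sfrp1 UMIs, or 516 CPM (386 to 675), with a UMI in 53.8% of them (39.5 to 67.8%). That was 2.49-fold (1.85 to 3.28) above Mfap4 Meox2 fibroblasts, the highest fibroblast subset, at 208 CPM (195 to 220). The Schwann-like cells held 5694 CPM of the fibroblast markers and 0 UMIs of Rspo3, Dkk2, Dkk3 and Sfrp2, where 3 counts would be 29.2 CPM. Their gate left out cells that met the fibroblast gate. In the clusters made without the 10 genes, the Schwann-like cluster (89 cells) held 485 CPM of Sfrp1. It also held 105 CPM of Wnt5a, 76.1 of Dkk2, 23.8 of Rspo3, and 19.0 each of Dkk3 and Sfrp2. The part of fibroblast RNA in the Sfrp1 level of Schwann-like cells was not tested. Sfrp1 was the only member at least 4-fold higher there than in all other gated cells, where 7.19% of all genes were. Within the fibroblasts, cells of several subset gates held 188 CPM (169 to 209), cells below the gates 99.7 (92.6 to 107), Cxcl14 cells 92.7 (71.5 to 118) and Pi16 Pcolce2 cells 52.0 (45.1 to 59.6). Mfap4 Meox2 cells were 3.99-fold (3.43 to 4.66) above Pi16 Pcolce2 cells and, as the only one of the 10 genes called in that subset, 4-fold or more above all other gated cells, against 1.18% of all genes. Mesothelial-like cells stood at 73.8 CPM (64.4 to 84.2), and duct-like cells at 17.6 (11.8 to 25.3), 2.45-fold (1.35 to 4.52) above gated lymphoid cells. In the clusters made without the 10 genes, Sfrp1 was 13.5 CPM in the cluster led by Spp1 and Clu. Clusters named T and NK-like or B-like held 3.85 to 27.4 CPM. The part of other cells' RNA in the Sfrp1 level of duct-like cells was not tested.

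Sfrp2 (chromosome 3, 83766321 to 83774316, plus strand) ordered Pi16 Pcolce2 and Mfap4 Meox2 fibroblasts the other way from Sfrp1. Pi16 Pcolce2 fibroblasts held 142 CPM (131 to 155) and mesothelial-like cells 111 CPM (99.7 to 124), a ratio of 1.28 (1.12 to 1.47). Fibroblasts of several gates held 46.2 CPM (37.0 to 57.0), those below the gates 33.5 (29.5 to 38.0), Mfap4 Meox2 cells 11.9 (9.14 to 15.3) and Cxcl14 cells 9.98 (4.01 to 20.6). Pi16 Pcolce2 cells thus exceeded Mfap4 Meox2 cells 11.9-fold (9.18 to 15.8) and Cxcl14 cells 14.3-fold (6.88 to 35.7). Acinar-like, duct-like and endothelial-like cells were at 2.07, 1.82 and 1.44 CPM, within counting error of the lymphoid 2.39 CPM.

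Dkk2 (chromosome 3, 132085292 to 132180304, plus strand) was also highest in Pi16 Pcolce2 fibroblasts, at 308 CPM (291 to 325), with up to 37 UMIs in a cell. Fibroblasts below the gates held 196 CPM (186 to 207), those of several gates 141 (125 to 159), Cxcl14 cells 128 (103 to 158) and Mfap4 Meox2 cells 68.8 (61.9 to 76.4). Pi16 Pcolce2 cells were 4.47-fold (3.97 to 5.04) above Mfap4 Meox2 cells. Mesothelial-like cells were at 10.3 CPM (7.0 to 14.6), 17.1-fold (12.0 to 25.2) below fibroblasts as a whole. Endothelial-like cells held 33.5 CPM (27.1 to 41.1) and had a UMI in 14.9% (11.4 to 19.0%). Their level was 32.7-fold (10.8 to 161) above that of lymphoid cells, which held 3 Dkk2 UMIs. Their 2768 CPM of the fibroblast markers lay between the 1340 to 1790 CPM of the lymphoid classes and those of the fibroblasts, and their levels of Rspo3 and Sfrp1, 5.77 and 6.49 CPM, were within counting error of lymphoid cells. They also held 2795 CPM of pericyte and 836 CPM of smooth muscle markers, against 3199 and 15102 CPM in mural-like cells. In the clusters made without the 10 genes, Dkk2 was 35.4 CPM in the endothelial-like cluster and 47.5 and 40.9 CPM in red blood cell-like clusters. Clusters named T and NK-like or B-like held 1.22 to 22.8 CPM. The part of other cells' RNA in the Dkk2 level of endothelial-like cells was not tested.

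Dkk3 (chromosome 7, 112116017 to 112159057, minus strand) was spread over fibroblasts and mesothelium. It stood at 69.5 CPM (58.1 to 82.5) in fibroblasts of several gates and 68.8 CPM (59.7 to 78.8) in mesothelial-like cells, a ratio of 1.01 (0.806 to 1.26). Mfap4 Meox2 cells held 54.4 CPM (48.3 to 61.2), fibroblasts below the gates 35.2 (31.0 to 39.7), Cxcl14 cells 32.8 (20.8 to 49.2) and Pi16 Pcolce2 cells 24.7 (20.05 to 30.2). The Mfap4 Meox2 level was 2.20-fold (1.74 to 2.80) above that of Pi16 Pcolce2 cells, the same direction as Sfrp1 and the opposite of Sfrp2 and Dkk2. Endothelial-like cells at 11.2 CPM (7.59 to 15.9) and mural-like cells at 14.7 (6.35 to 29.0) lay above lymphoid cells, which held 1 Dkk3 UMI. In the clusters made without the 10 genes, Dkk3 was 10.8 CPM in the endothelial-like and 21.5 in the mural-like cluster. Red blood cell-like clusters held 9.49 and 11.4 CPM, and clusters named T and NK-like or B-like 1.93 to 6.08. The part of other cells' RNA in these levels was not tested.

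Read by subset, the calls fell on 5 different genes. Pi16 Pcolce2 fibroblasts were at least 4-fold above all other gated cells for Wnt2, Sfrp2 and Dkk2, 3 of the 10, against 1.37% of all genes. Pi16 encodes a peptidase inhibitor that marks adventitial fibroblasts in many organs. Cxcl14 fibroblasts, a subset that earlier results of these data had named by Rspo3 as well, were so for Rspo3 alone, against 1.12% of all genes. Mfap4 Meox2 fibroblasts were so for Sfrp1 alone. Neither the fibroblasts below the gates nor those of several gates were so for any member, against 0.29% and 0.834%. The median fold of the 10 genes was 1.60 in Pi16 Pcolce2 cells, 0.848 in Mfap4 Meox2 cells and 0.922 in Cxcl14 cells, beside 0.958, 1.03 and 0.966 over all genes tested. Duct-like cells were so for Wnt4 alone, against 6.58% of all genes.

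**Figure D2:**
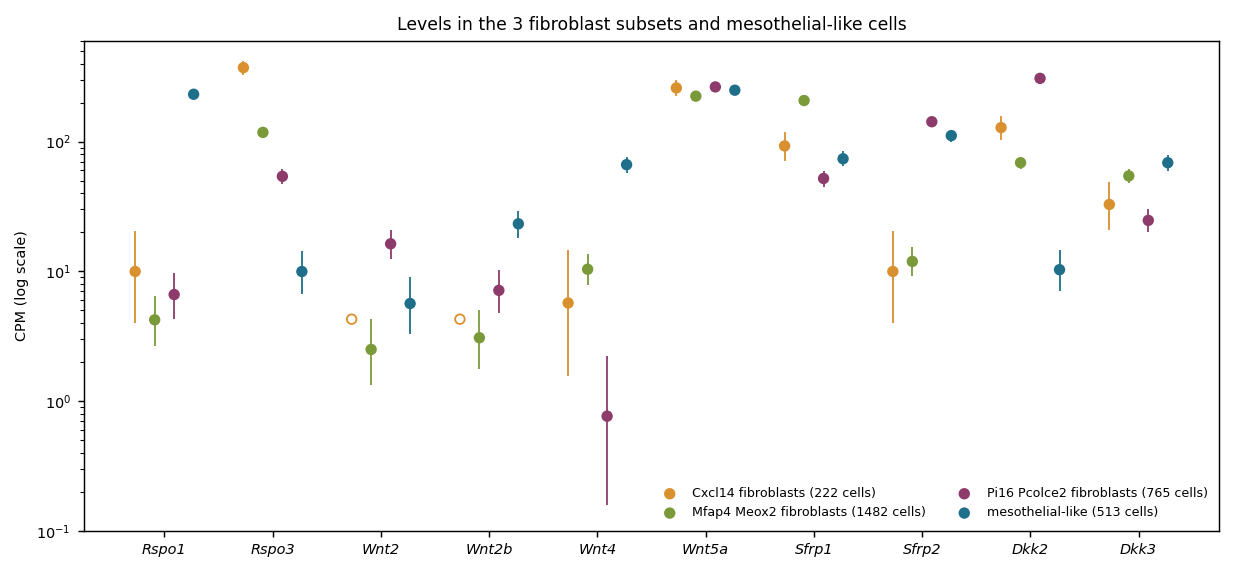
Level of each gene (CPM, log axis) in the 3 fibroblast subsets and in mesothelial-like cells, with exact 95% Poisson intervals; open circles mark 0 UMIs and are drawn at the limit of 3 counts. Rspo3 fell from 372 CPM in Cxcl14 cells to 54.0 in Pi16 Pcolce2 cells and 9.97 in mesothelial-like cells, while Dkk2 and Sfrp2 peaked in Pi16 Pcolce2 cells at 308 and 142 CPM.

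Depth differed between the classes, from a median of 1403 UMIs in B-like cells to 9774 in duct-like cells, with 1594 in Schwann-like, 1668 in lymphoid, 2710 in fibroblast and 4154 in mesothelial-like cells. Shares of cells were therefore also taken after thinning every cell to 800 UMIs, which left out no cell. Rspo1 then appeared in 16.0% of mesothelial-like cells (12.9 to 19.4%), 0.475% of fibroblasts (0.311 to 0.696%) and 0.234% of lymphoid cells (0.0482 to 0.681%), against 56.9%, 2.08% and 0.312% before thinning. Rspo3 appeared in 22.5% of Cxcl14 fibroblasts (17.2 to 28.6%), 7.83% of Mfap4 Meox2 cells (6.51 to 9.31%) and 3.66% of Pi16 Pcolce2 cells (2.45 to 5.25%), against 59.9%, 23.6% and 19.0% before. Sfrp1 appeared in 30.8% of Schwann-like cells (18.7 to 45.1%) and 16.9% of Mfap4 Meox2 cells (14.996 to 18.9%), whose intervals overlapped. Dkk2 appeared in 16.5% of Pi16 Pcolce2 cells (13.9 to 19.3%) and 5.80% of endothelial-like cells (3.63 to 8.73%), with 44.8% and 14.9% before. The Wnt5a share was 18.0% (16.9 to 19.0%) in fibroblasts and 15.6% (12.6 to 19.0%) in mesothelial-like cells, beside 0.389% of lymphoid cells. Wnt4 appeared in 4.76% of duct-like cells (1.31 to 11.7%) and 4.68% of mesothelial-like cells (3.02 to 6.88%), where 34.5% and 23.8% held it before. For Wnt2b the thinned shares, 0.390% of mesothelial-like cells (0.0472 to 1.40%) and 0.311% of fibroblasts (0.181 to 0.497%), were too low to show the difference seen in CPM.

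**Figure D3:**
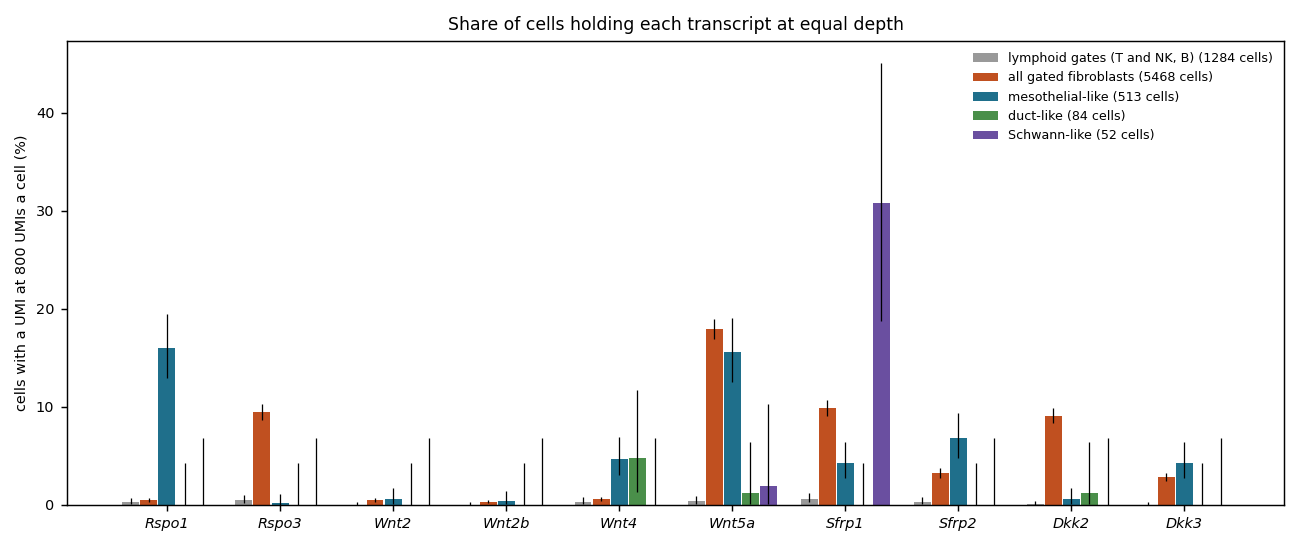
Share of cells (%) with at least 1 UMI of each gene after thinning each cell to 800 UMIs, in lymphoid, fibroblast, mesothelial-like, duct-like and Schwann-like cells; bars are shares, black lines exact 95% binomial intervals, and a line without a bar is a share of 0. Lymphoid shares stayed at or below 0.623% for each gene, while 16.0% of mesothelial-like cells held Rspo1 and 18.0% of fibroblasts held Wnt5a.

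The fibroblasts were also grouped without the gates, by clustering all cells on variable genes other than the 10. Of 25 clusters, 7 were mainly fibroblasts and held 5501 cells, 94.3% of them in the fibroblast gates. Rspo3 was highest in a cluster led by Thsd7a, Rtl4 and Cxcl14 (580 cells), at 307 CPM (286 to 328), and in a cluster led by Cxcl14, AW112010 and Dlk1 (1255 cells), at 262 CPM (242 to 282). Sfrp1 reached 368 CPM (344 to 393) in a cluster led by Eln, the elastin gene, Fmo2 and Mfap4 (749 cells), and stood at 44.0 CPM (37.9 to 50.9) in the cluster led by Efemp1, Edn1 and Cmah (842 cells). That last cluster held the highest Dkk2, 304 CPM (288 to 322), Sfrp2, 150 CPM (138 to 162), and Wnt2, 17.6 CPM (13.8 to 22.1), of the 7. A cluster led by Efemp1, Fn1 and Anxa3 (855 cells) had Dkk2 close to it, at 269 CPM (250 to 288), but less Sfrp2, at 49.8 CPM (42.0 to 58.6).

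A cluster led by Sox6 and Aff3 (984 cells) stood apart for Wnt5a. It held 112 CPM (100 to 125) of Wnt5a, whereas the other 6 fibroblast clusters held between 227 and 330 CPM. Its Sfrp2 was 1.71 CPM (0.556 to 4.0) and its Dkk2 36.7 CPM (30.0 to 44.3), the lowest of the 7, while its Sfrp1, 149 CPM (135 to 163), was not. Its Wnt4, 15.8 CPM (11.5 to 21.0), was the highest of the 7, and the next was 6.21 CPM (3.62 to 9.94) in the Thsd7a cluster. Both the Sox6 cluster and the Eln cluster were named as Mfap4 Meox2 fibroblasts. They held 984 and 749 cells and the gate 1482, so not all of their cells lay in it. The Sox6 and Eln clusters differed in Wnt5a (112 against 315 CPM), in Sfrp1 (149 against 368 CPM) and in Wnt4 (15.8 against 4.46 CPM).

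**Figure D4:**
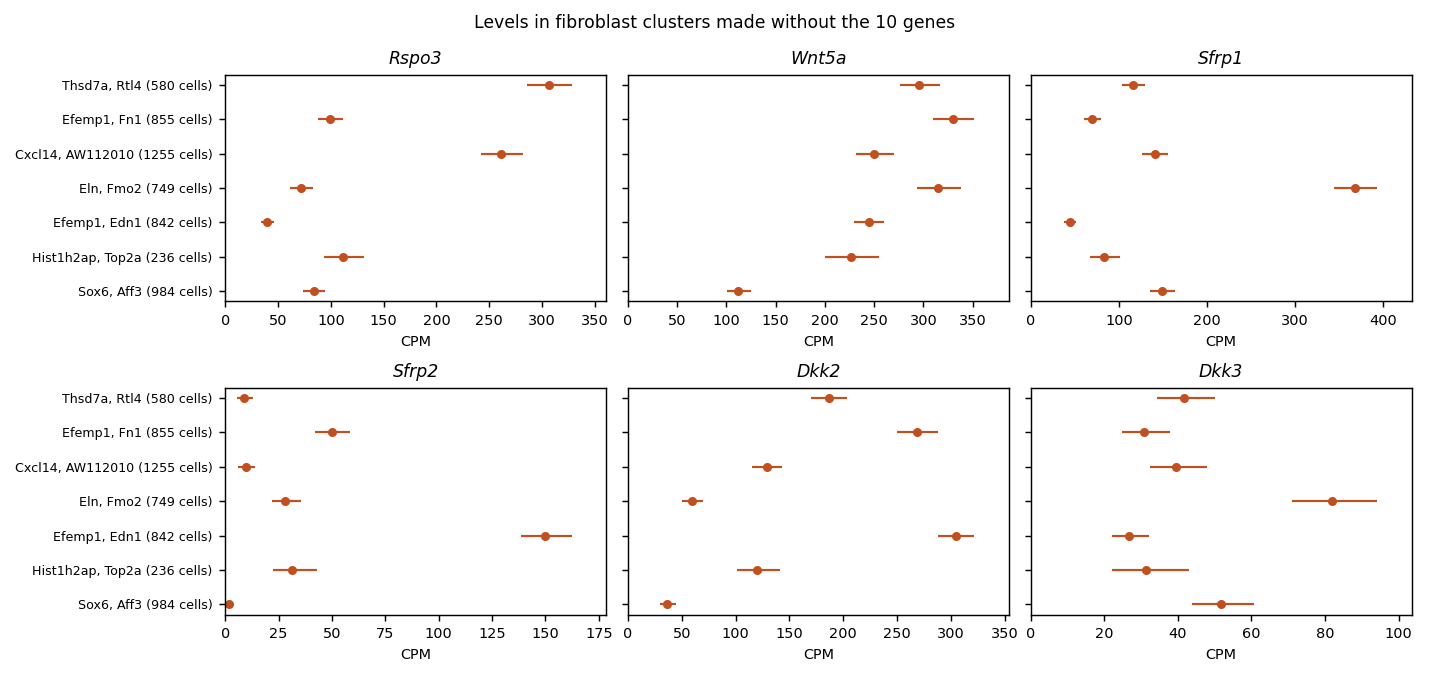
Level (CPM, with exact 95% Poisson intervals) of 6 of the genes in 7 fibroblast clusters made without the 10 genes, each named by its 2 leading genes. Wnt5a stood between 227 and 330 CPM in 6 clusters and at 112 CPM in the Sox6, Aff3 cluster, and Sfrp1 reached 368 CPM in the Eln, Fmo2 cluster.

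Cycling fibroblasts, 190 cells with at least 3 UMIs over at least 2 cell cycle markers, were compared with the 5278 others. Their Sfrp1 was 89.7 CPM (73.7 to 108) against 130 (125 to 136), a ratio of 0.688 (0.563 to 0.834). Sfrp2 was 31.3 against 51.8 CPM, a ratio of 0.604 (0.425 to 0.836), and Dkk2 126 against 180 CPM, a ratio of 0.70 (0.591 to 0.824). Rspo3, 111 against 133 CPM, gave a ratio of 0.834 (0.696 to 0.992), and Wnt5a, 229 against 257 CPM, one of 0.889 (0.785 to 1.004). The ratios of Wnt5a, Dkk3, Rspo1, Wnt2, Wnt2b and Wnt4 had intervals that held 1. Cycling cells were deeper, with a median of 4799 against 2656 UMIs. The groups were not matched for fibroblast subset, and the part of the subset mix in these ratios was not tested.

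Co-occurrence in the same cells was read after thinning to 2000 UMIs, which kept 3789 fibroblasts and left out 1679. Of 37 cells with Wnt2, 37.8% (22.5 to 55.2%) held Sfrp2, against 8.0% (7.15 to 8.91%) of cells without Wnt2. Within Pi16 Pcolce2 fibroblasts alone the shares were 48.0% (27.8 to 68.7%) of 25 cells and 24.3% (21.1 to 27.7%), whose intervals did not overlap by a narrow margin. Sfrp2 was found in 4.88% (3.47 to 6.63%) of fibroblasts with Rspo3 and in 9.17% (8.16 to 10.3%) of those without. Within Pi16 Pcolce2 fibroblasts these shares were 20.3% (11 to 32.8%) and 25.5% (22.2 to 29.1%), whose intervals overlapped. Sfrp1 was found in 21.4% (19.3 to 23.7%) of fibroblasts with Wnt5a and 16.9% (15.4 to 18.4%) of those without. Within cells of the Mfap4 Meox2 gate these shares were 35.1% (30.0 to 40.4%) and 22.9% (19.9 to 26.1%). In 433 mesothelial-like cells, Wnt4 was held by 12.2% (7.49 to 18.4%) of cells with Rspo1 and 11.6% (8.04 to 15.9%) of those without, so no link was detectable at this depth.

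Other pathway genes were taken from lists of 19 ligands and secretion factors, 13 antagonists, 22 receptors and 13 intracellular or target genes, of which 9, 5, 21 and 13 had at least 20 UMIs. The lists were also chosen with earlier results of these data known, so their calls are descriptions. In mesothelial-like cells, 4 of the 9 ligands and secretion genes were at least 4-fold above all other gated cells, against 4.97% of all genes. Wnt9a stood at 60.5 CPM (52.0 to 69.9), Wnt7b at 9.31 (6.18 to 13.4), Wnt6 at 7.64 and Rspo2 at 3.32 (1.59 to 6.11). Wls, the carrier that exports Wnt proteins, was highest there as well among the 15 classes, at 363 CPM (341 to 385). In Pi16 Pcolce2 fibroblasts Wnt10b, 43.1 CPM (36.8 to 50.1), and Wnt11, 29.8 CPM (24.7 to 35.7), were called, and in mural-like cells Wnt5b, 79.1 CPM (57.2 to 107). Schwann-like cells held 9 UMIs of Wnt6, 87.6 CPM (40.1 to 166). Further calls in single classes were Wnt7b in duct-like cells, on 12 UMIs (7.28 CPM), and Rspo2 in fibroblasts of several gates, on 6 UMIs (3.18 CPM). Wnt10b and Wnt11 were also called in fibroblasts as a whole, against 6.87% of all genes. The shares of all genes called were 1.37% in Pi16 Pcolce2, 5.61% in mural-like, 7.19% in Schwann-like, 6.58% in duct-like and 0.834% in several-gate cells.

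Of the 5 other antagonists, Sfrp4 shared its highest class with Sfrp2 and Dkk2, at 176 CPM (163 to 189) in Pi16 Pcolce2 fibroblasts. It held 8.56 to 114 CPM in the other fibroblast classes and, unlike Sfrp2, only 8.97 CPM in mesothelial-like cells. Sfrp5 joined Sfrp1 in Schwann-like cells, where 43 of its 66 UMIs in gated cells were counted, at 419 CPM (303 to 564). Sostdc1 stood at 243 CPM (157 to 359) in the same cells, on 25 UMIs. Acinar-like cells held 923 of its 1013 UMIs in gated cells, at 73.6 CPM, and it was called in each of these classes. Apcdd1 was called in Schwann-like cells, on 6 UMIs, and in mesothelial-like cells at 30.6 CPM. Of the 5 genes, 3 were thus called in Schwann-like cells, against 7.19% of all genes. In Pi16 Pcolce2, mesothelial-like and acinar-like cells 1 was called in each, against 1.37%, 4.97% and 3.42% of all genes. In fibroblasts as a whole Sfrp4 was called, against 6.87%.

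Of the 21 receptors, 3 were called in fibroblasts as a whole (Fzd1, Fzd2 and the glypican gene Gpc3), 4 in duct-like cells (Fzd5, Fzd9, Lrp5 and Rnf43), 2 in endothelial-like cells (Fzd6 and Lrp5), 2 in mural-like cells (Fzd9 and Lgr6), and 1 each in mesothelial-like (Lgr5), Schwann-like (Fzd3) and acinar-like cells (Rnf43). The shares of all genes called there were 6.87%, 6.58%, 6.53%, 5.61%, 4.97%, 7.19% and 3.42%, so that 1 gene of 21 is near the share of all genes. Fzd9 had 25 UMIs in gated cells, 7 of them in duct-like cells, its highest class, at 4.25 CPM (1.71 to 8.75). It met the UMI minimum for testing only through the duct-like cells, so its calls rested on few UMIs. Fzd6 was at 92.3 CPM (81.3 to 104) in endothelial-like cells. Among the R-spondin receptors, Lgr5 stood at 24.3 CPM (19.0 to 30.5) in mesothelial-like cells, the class of Rspo1, and at no more than 5.90 CPM in the other 14 classes. Lgr6 reached 82.8 CPM (60.4 to 111) in mural-like cells. Lgr4 was at 165 CPM (96.4 to 265) in Schwann-like cells, 100.1 CPM in duct-like cells and 44.6 CPM in fibroblasts. Ror1, a receptor for WNT5A, was at 438 CPM (407 to 471) in duct-like, 328 CPM in mesothelial-like and 251 CPM in fibroblast cells.

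Among intracellular and target genes, mesothelial-like cells held the highest Axin2, a feedback target of beta-catenin, at 54.2 CPM (46.2 to 63.2), where fibroblasts held 23.8 and acinar-like cells 4.47 CPM. Axin2 was 3.72-fold above all other gated cells and so missed the 4-fold line, whereas Nkd1, 110 CPM, passed it. Sp5 stood at 7.64 CPM (4.85 to 11.5) there, with 23 of its 30 UMIs in gated cells, and met the minimum of 20 UMIs only through this class. Nkd1 and Sp5 were the 2 of 13 genes called in mesothelial-like cells, against 4.97% of all genes. In the same cells Ccnd1, Lef1, Tcf7 and Nkd2 lay below all other gated cells, at 0.308-, 0.0963-, 0.278- and 0.625-fold. Within the fibroblasts Axin2 was 36.2 CPM in Pi16 Pcolce2 cells, 19.4 in Mfap4 Meox2 cells and 4.28 in Cxcl14 cells. Nkd1 was also called in mural-like cells at 114 CPM (87.4 to 146). Further calls were Ccnd1 in duct-like cells (9.04-fold) and Bambi in endothelial-like cells (4.795-fold). Nkd2 was called in Schwann-like cells (34.7-fold, on 12 UMIs) and in Mfap4 Meox2 fibroblasts (4.15-fold). Lef1 and Tcf7, at 948 and 336 CPM, were called in T and NK-like cells, where they are textbook lymphocyte factors. The shares of all genes called were 5.61% in mural-like, 6.58% in duct-like, 6.53% in endothelial-like and 7.19% in Schwann-like cells. They were 1.18% in Mfap4 Meox2 fibroblasts and 6.92% in T and NK-like cells.

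**Figure D5:**
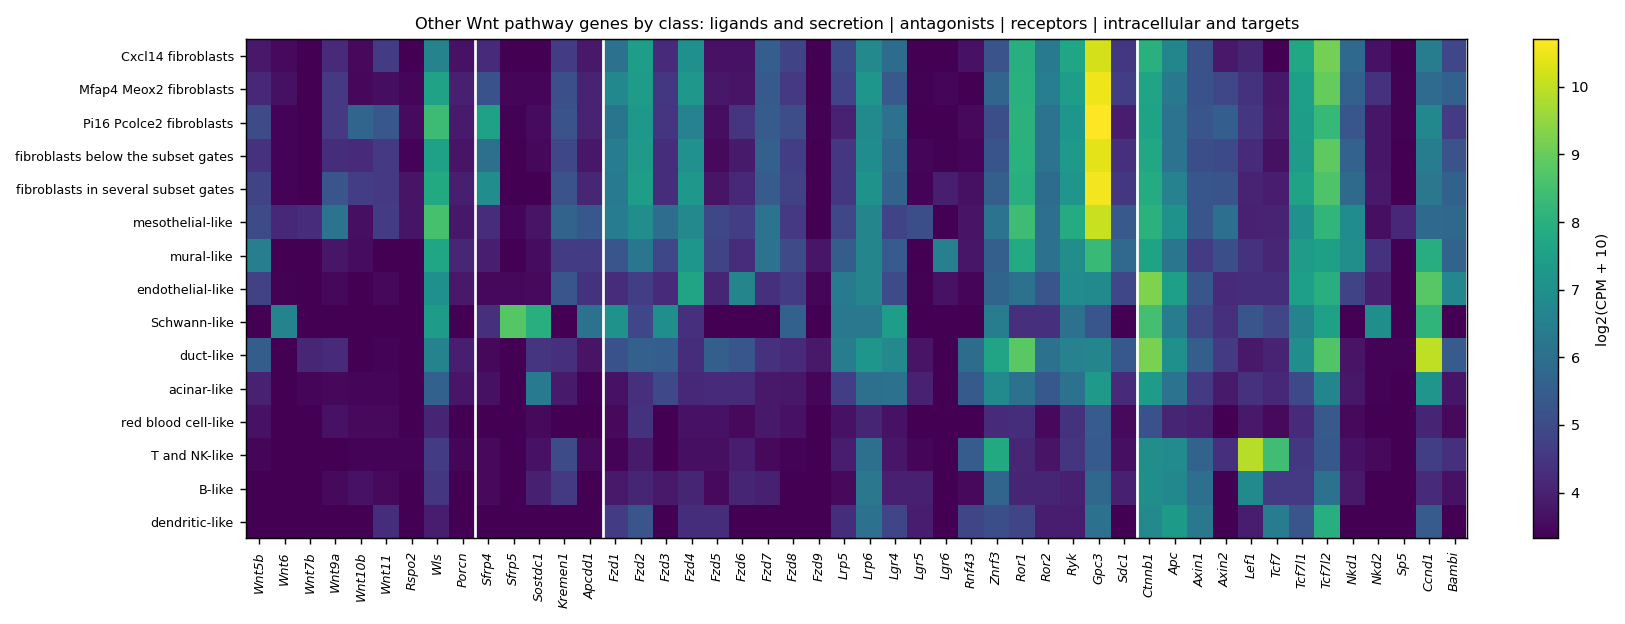
Level of other Wnt pathway genes with at least 20 UMIs, as log2(CPM + 10), in the 15 classes; white lines divide ligands and secretion, antagonists, receptors, and intracellular and target genes. Sfrp5 was highest in Schwann-like cells (419 CPM), Lgr6 in mural-like cells (82.8 CPM) and Lef1 in T and NK-like cells (948 CPM).

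The genes most like each member were found by the correlation of log2(CPM + 10) over the 15 classes, among 13526 genes with at least 100 UMIs. The points share 1 library, and the 5 fibroblast classes share their leading genes, so these values are descriptions. Rspo3 was closest to Ms4a4d, Dchs2 and Adamtsl3 (r from 0.990 to 0.992), and Wnt5a to Dcn (0.984), the decorin gene of fibroblast matrix, Ogn (0.983) and Mirg (0.981). Dkk2 was closest to Fam155a (0.983), Adm (0.978) and Tfpi2 (0.977), and Sfrp2 to Ifi202b (0.977), Sbsn (0.967) and Efemp1 (0.961). Wnt2 was closest to Lmntd1 (0.945) and to Pcolce2 (0.943) and Pi16 (0.932), the markers that gated its highest class. Rspo1 and Wnt2b shared Gjb5, a connexin gene (0.971 and 0.948), with Tmem151a (0.971) and Rpp25 (0.970) for Rspo1 and Tbx18 (0.980) and Nxph1 (0.954) for Wnt2b. Wnt4 was closest to Ptgds (0.945), Ctf1 (0.938) and Il17re (0.936), Sfrp1 to Gspt2 (0.951), Sgcd (0.946) and Lrrn2 (0.945), and Dkk3 to Hoxaas2 (0.952), Lox (0.952) and Cdh11 (0.942).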

How the data were processed

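Single-cell RNA of pooled pancreata was measured in 1 library. Per the labels and methods, the authors made the deposited matrix of whole UMI counts with Cell Ranger 7.1.0 (submitters' processing notes, which also name mm10). Their later removal of free RNA and their 10000-UMI limit are not visible in these counts. Here, barcodes of more than 800 and fewer than 100000 UMIs with under 15% mitochondrial UMIs were kept, so 818 cells of 10000 UMIs or more stayed in. Most gates asked for at least 2 markers, 3 UMIs and 0.1% of a cell's UMIs. Fibroblasts needed 3 markers and 2%, acinar-like cells 5% and red blood cell-like cells 10%. Duct-like cells needed 3 markers with acinar markers under 10%, and cells that also met the fibroblast gate counted as mesothelial-like with 3 mesothelial markers. Fibroblast subsets needed 1 Cxcl14 UMI, or 2 of Mfap4 and Meox2, or 2 of Pi16 and Pcolce2. Gate minimums were set after the counts were seen. The 10 genes and all lists were chosen with earlier results of these data known. Named genes were the members, listed pathway genes with at least 20 UMIs, and the 3 most like each member. Counts were summed per class as CPM, with exact Poisson, Clopper-Pearson or conditional 95% intervals. A count of 0 was taken as at most 3. Scripts (Python 3 with scipy and scanpy) were tested on simulated data. Clusters used 2000 variable genes, 30 components, 20 neighbours and resolution 1. Scrublet (expected rate 0.08) marked 4.91% of cells, which stayed in. Gene positions are from GENCODE M21 on GRCm38.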

Additional observations from a re-analysis of the deposited data

Results flagged for a closer look

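UMIs of the 10 genes were also found in cells that entered no comparison. Cells that met gates of more than 1 class held 1617 of them (397 CPM over 927 cells), led by Wnt5a (441 UMIs, 108 CPM) and Sfrp1 (403 UMIs, 98.9 CPM). Of these cells Scrublet marked 29.7%. Cells that met no gate held 220 (168 CPM over 593 cells), of which Rspo3 gave 71 in 50 cells (54.1 CPM, against 6.50 CPM in lymphoid cells). The 842 barcodes outside the limits held 145 (62.0 CPM), with no UMI of Rspo1 or Wnt2. No explanation of these UMIs was tested.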

How the results depend on the processing

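No paired analysis was possible because there was 1 library and no test. Under 9 alternatives, the level of each gene in its highest class stayed inside its counting interval in 76 of 87 cases and the ratio to the next class in 74 of 85, and no ratio whose interval left out 1 changed direction. The highest class held in 82 of 90 cases, and the exceptions were Wnt4 (3 cases), Wnt5a (1) and Dkk3 (4). The values that moved were these. With the upper limit at 10000 UMIs, Wnt4 in duct-like cells was 19.0 CPM and its ratio to mesothelial-like cells 0.29, Sfrp2 in Pi16 Pcolce2 fibroblasts 158 CPM (ratio 1.65), and Dkk2 there 285 CPM. With stricter gates, Rspo3 in Cxcl14 fibroblasts was 266 CPM (ratio 2.04), Wnt4 in duct-like cells 56.5 CPM, Sfrp2 170 CPM (ratio 1.48), the Dkk2 ratio 1.42, and Dkk3 in fibroblasts of several gates 88.0 CPM (ratio 1.34). With clusters in place of gates, Rspo3 was 285 CPM (ratio 2.77) and the Dkk2 ratio 1.35. This Rspo3 value covered the clusters of 580 and 1255 cells named as Cxcl14 fibroblasts. The Cxcl14 gate held 222 cells, so most cells of these clusters lay outside it. As a mean of per-cell CPM, Wnt4 in duct-like cells was 47.2 CPM (ratio 0.681), Sfrp2 160 CPM (ratio 1.65) and Dkk2 286 CPM (ratio 1.75). With the upper limit at 10000 UMIs the 41 duct-like cells of 10000 UMIs or more are left out by construction. For the other values the cause was not tested. No cluster was named for the duct-like gate or for several gates, so the cluster alternative gave no value for Wnt4, Wnt5a and Dkk3 in those classes. The cluster with the leading genes of the duct-like gate held 38.1 CPM of Wnt4.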
